A study of Rattus norvegicus with 4 samples.

Results

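The genes described here are the heat shock protein and DnaJ chaperone genes of rat mammary cancers, taken as every gene whose symbol begins with Hsp followed by a family letter or number, or with Dnaja, Dnajb or Dnajc. Probe sets that name a single gene covered 64 such genes among 14217 genes in all, and 98 probe sets measured them. Of the 64 genes, 25 carry an Hsp symbol, 4 a Dnaja symbol, 12 a Dnajb symbol and 23 a Dnajc symbol. By where their products are known to work, 33 were placed in the cytosol or nucleus, 8 in mitochondria, 12 in the endoplasmic reticulum and 11 elsewhere or at an unsettled site.

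Transcripts of 4 mammary cancers from female Sprague-Dawley rats, an outbred stock, were hybridised to 1-colour oligonucleotide arrays, with 1 array for each tumour. The rats had received a whole-body dose of 0.5 Gy of carbon ions (290 MeV/u, a densely ionising radiation, with a spread-out Bragg peak of 6 cm) at 7 weeks of age, and ate a diet with 23.5% corn oil from 9 weeks of age. All 4 tumours form 1 group and are numbered 1 to 4 as in their labels, which do not say whether they came from separate rats. Neither unirradiated tumours nor normal mammary gland were analysed here, so the values describe how the chaperone genes differ among these tumours and not what irradiation or malignancy did to them.

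Chaperones bind unfolded stretches of protein, prevent clumping and help the chain to fold. Hsp70 proteins do this in cycles of ATP hydrolysis that DnaJ proteins start through their J domain and nucleotide exchange factors reset, while Hsp90 proteins finish the folding of kinases and steroid receptors and small heat shock proteins hold unfolded protein without ATP. In the cytosol, unfolded protein raises many of these genes through the heat shock factor Hsf1. The endoplasmic reticulum has its own Hsp70, Hsp90 and DnaJ proteins, raised by the unfolded protein response, and mitochondria import and fold proteins with a further set.

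All levels are log2 of the signal plus 16, and a gene was called expressed when its mean over the tumours reached 7.81, a signal of about 209 and the median of all probe sets. By this measure 49 of the 64 genes were expressed, of 9403 expressed genes in all. They were 24 of 33 cytosolic or nuclear genes, 7 of 8 mitochondrial genes, 11 of 12 genes of the endoplasmic reticulum and 7 of 11 others. The 15 genes below that level were Dnajb3, Dnajb5, Dnajb7, Dnajb13, Dnajb14, Dnajc11, Dnajc17, Dnajc22, Hspa1l, Hspa2, Hspa4l, Hspa12a, Hspa12b, Hspb2 and Hspb3, with means between 4.69 and 7.80. Hspa8, Hsp90aa1 and Hspa1b, which encode the constitutive Hsp70, the stress-inducible Hsp90 and a near copy of Hspa1a, were represented here by probe sets that name several genes and have no value of their own.

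The tissue label was checked against marker genes. Of 8 luminal epithelial markers 7 were expressed, and so were 6 of the 7 basal and myoepithelial markers that had a probe set. The tumours differed in their levels of cell type markers. Summed signals of the luminal markers were 28138, 44372, 52207 and 46556 in tumours 1 to 4, and those of 6 fibroblast markers were 37745, 29348, 34578 and 11830. Those of the 6 expressed basal and myoepithelial markers were 23348, 22439, 17848 and 26770. Of these 6 markers, 3 ranged over at least 1 log2. The lowest level fell in tumour 3 for 3 of them, in tumour 1 for 2 and in tumour 2 for 1. Macrophage markers (5 of 6 expressed) had their highest sum in tumour 1 and their lowest in tumour 3, and all 8 proliferation markers were highest in tumour 2. Of the other lists, 4 of 5 endothelial markers, 2 of 5 lymphocyte markers and 1 of 6 adipocyte markers with a probe set were expressed. In bulk tumour RNA, fewer cells of a type and less RNA per cell cannot be told apart.

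Most chaperone genes differed little among the 4 tumours. The difference between the highest and the lowest tumour reached 1 log2, which is 2-fold in signal plus 16, in 4 of 49 expressed chaperone genes (8.16%), against 12.4% of all expressed genes. The 4 were Dnajc12, Hspb8, Hspb1 and Hspa1a. Without the filter on low values it did so in 11 of 64 chaperone genes, against 21.1% of all genes. In 27 of the 49 genes (55.1%) the range stayed under 0.5 log2, against 54.3% of all expressed genes. The median standard deviation over the 4 tumours was 0.21 log2 for the chaperone genes and 0.21 log2 for all expressed genes, so their spread was near that of other genes.

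**Figure D1:**
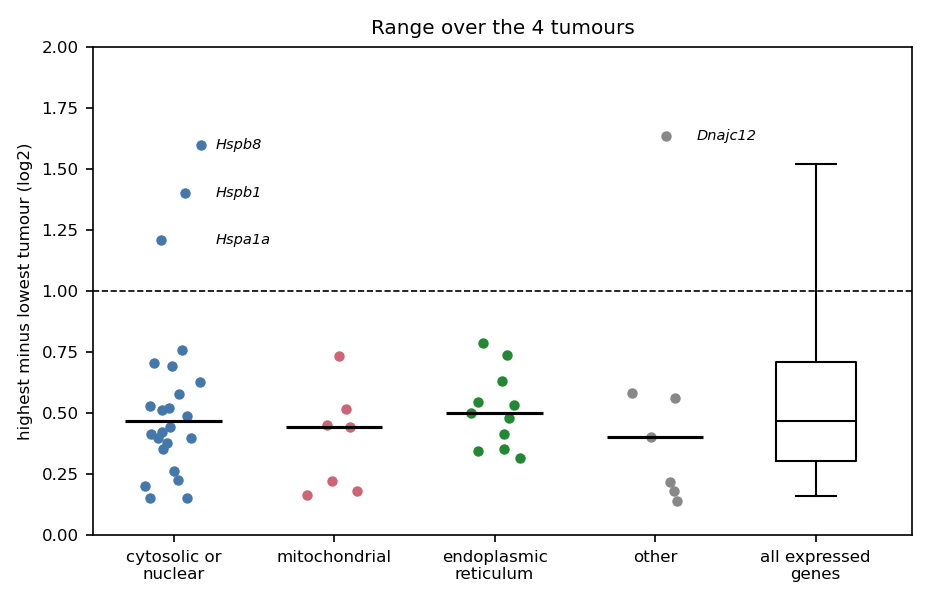
Difference between the highest and the lowest of the 4 tumours (log2) for the expressed chaperone genes, 1 point a gene, grouped by the site of the product. The box gives the quartiles of all expressed genes with whiskers at their central 90%, black bars are medians, and the dashed line marks 1 log2. Above the line lie Hspb8, Hspb1, Hspa1a and Dnajc12, and the group medians sit close to that of all expressed genes.

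The 4 genes were low in different tumours. Dnajc12, a DnaJ protein that assists the folding of aromatic amino acid hydroxylases, had levels of 8.21, 9.84, 9.50 and 9.42 in tumours 1 to 4. Tumour 1 lay below all the others, and the highest tumour exceeded it 3.10-fold (SD 0.71 log2, n = 4). Hspb8, a small heat shock protein that works with Bag3 to send aggregates to autophagy, had levels of 8.73, 9.99, 10.33 and 9.43. It was lowest in tumour 1 as well and 3.03-fold higher in tumour 3 (SD 0.70 log2). Its next probe set gave 7.88, 8.75, 8.89 and 8.52, with the same highest and lowest tumours and a difference of 1.00 log2. Without tumour 1 the range of Dnajc12 was 0.41 log2 and that of Hspb8 was 0.90 log2. The tumour in which both genes were low also had 6 of 7 luminal markers at their lowest, and the part of these markers in the result was not tested.

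Hspb1 and Hspa1a, a pair that heat shock induces in many cell types, had their lowest level in tumour 2 and their highest in different tumours. Hspb1, the small heat shock protein often called Hsp27, had levels of 10.94, 9.54, 10.64 and 10.17 in tumours 1 to 4. Its highest tumour was 2.64-fold above its lowest (SD 0.61 log2, n = 4). Hspa1a, the stress-inducible cytosolic Hsp70, had levels of 10.42, 9.89, 10.75 and 11.10. Its range was 2.31-fold (SD 0.51 log2), with tumour 4 highest. Cross-hybridisation of its probe set with transcripts of the near-identical Hspa1b cannot be told apart from its own signal. Without tumour 2 the range of Hspb1 was 0.76 log2 and that of Hspa1a was 0.68 log2, and without tumour 4 that of Hspa1a was 0.86 log2. Tumour 2 also held the highest level of all 8 proliferation markers, and their part in the result was not tested.

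**Figure D2:**
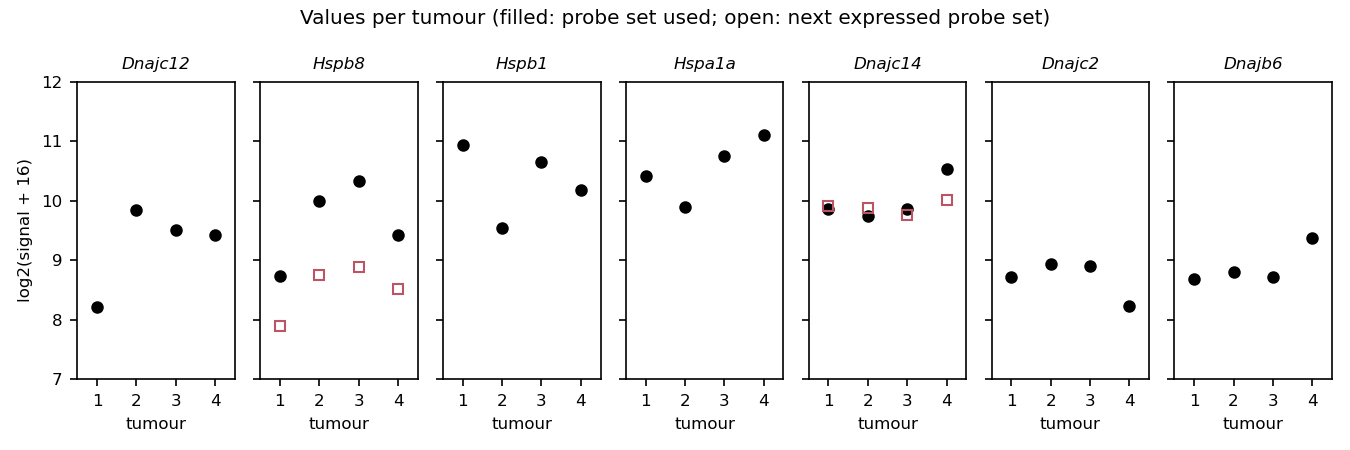
Levels in each tumour, log2(signal + 16), of the 7 chaperone genes with a 2-fold range or with 1 tumour at least 0.5 log2 from each of the others. Filled points show the probe set used and open squares the next expressed probe set where a gene has one; Dnajc12 and Hspb8 are lowest in tumour 1, Hspb1 and Hspa1a in tumour 2.

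A further count asks whether a single tumour lies at least 0.5 log2 (1.41-fold) outside the values of the 3 remaining tumours. In tumour 1 this held for 2 of 49 chaperone genes, Hspb8 and Dnajc12, both below, against 9.84% of all expressed genes. In tumour 2 it held for 2, Hspa1a and Hspb1, both below, against 2.33% of all expressed genes. In tumour 3 it held for 0, against 3.09%. In tumour 4 it held for 3, against 3.51%. With the arrays set to a common median the counts of tumours 2 and 4 were 1 and 1.

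Of the 3 genes of tumour 4, Dnajb6 and Dnajc2 were placed in the cytosol or nucleus and Dnajc14 in the endoplasmic reticulum. Dnajb6, which keeps polyglutamine proteins from aggregating, had levels of 8.68, 8.80, 8.71 and 9.38 in tumours 1 to 4. Further probe sets that name Dnajb6 together with its pseudogenes were not used. Dnajc14, a DnaJ protein of the endoplasmic reticulum membrane, had levels of 9.86, 9.74, 9.86 and 10.53, but its next probe set gave 9.91, 9.87, 9.76 and 10.00. Both probe sets of Dnajc14 were highest in tumour 4, and the difference between the same pair of tumours was 0.79 log2 by the first and 0.13 log2 by the second. Dnajc2, a ribosome-associated DnaJ protein, lay below the others in tumour 4, with levels of 8.72, 8.93, 8.90 and 8.22. Hspa14, the Hsp70 protein that pairs with Dnajc2 on the ribosome, had levels of 9.37, 9.78, 9.35 and 9.15. By these probe sets both partners were highest in tumour 2 and lowest in tumour 4. A dimmer probe set of Dnajc2, below the level for expressed genes, ran the other way with 6.37, 6.31, 6.41 and 6.82, and with the mean of its probe sets the Dnajc2 difference was 0.10 log2. Of the 8 proliferation markers, 8 were highest in tumour 2 and 5 lowest in tumour 4, and their part in the result was not tested.

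Among the remaining cytosolic genes, those of the central folding cycle differed by under 0.5 log2, apart from Hspa4 with 0.76 log2. Hsp90ab1, the constitutive Hsp90, had levels of 13.13, 13.25, 13.62 and 13.33, a range of 0.49 log2. Its next probe set ranged over 0.48 log2 between the same tumours, but after quantile normalization the difference by the first was 0.02 log2. Dnaja1, a partner of the constitutive Hsp70, had levels of 11.56, 11.65, 11.71 and 11.61, and 4.23% of expressed genes had a smaller range than its 0.15 log2. Dnajb1, the partner of Hsp70 in dissolving aggregates, had levels of 10.87, 10.96, 10.95 and 11.09, and its next probe set differed in which tumour was highest. Hsph1, a nucleotide exchange factor for Hsp70, had levels of 11.45, 11.50, 11.41 and 11.14. Hspa4, a factor of the same family, differed more, with 11.04, 11.26, 11.39 and 11.79. Hsph1 was lowest and Hspa4 highest in tumour 4, so these relatives differed in opposite ways there.

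Other cytosolic and nuclear genes ranged between 0.15 and 0.58 log2. Dnajc9, a histone chaperone, had its highest level in tumour 1 (11.67, against 11.36, 11.09 and 11.12 in tumours 2 to 4). Dnajb2, which carries ubiquitin-binding motifs and delivers clients to the proteasome, had levels of 10.13, 10.23, 10.65 and 10.53. Dnaja4 had levels of 10.77, 10.76, 11.16 and 10.85, and its dimmer probe set gave a difference of 1.02 log2 between the same pair of tumours, against 0.40 log2. Small heat shock proteins best known from muscle, Hspb6 and Hspb7, ranged over 0.51 and 0.20 log2. Of 9 skeletal muscle markers with a probe set 1 was expressed, Tnni2, with levels of 7.61, 7.68, 7.82 and 8.82, and Hspb6 was highest in tumour 4 (8.88). Over all 9 muscle markers, 3 were highest and 2 lowest in tumour 4, and their part was not tested. Taking the 24 cytosolic or nuclear genes as a group, the median gap to the average of the 3 remaining tumours was -0.15, 0.07, 0.06 and -0.03 in tumours 1 to 4, against -0.04, 0.04, 0.03 and -0.02 for all expressed genes. In tumour 1, 12 of the 24 had their lowest level, against 36.2% of all expressed genes, and with a common median the gap there was -0.24, against -0.13 for all expressed genes. In that tumour 6 of 7 luminal markers were lowest and all 5 macrophage markers highest, and their part in the result was not tested.

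**Figure D3:**
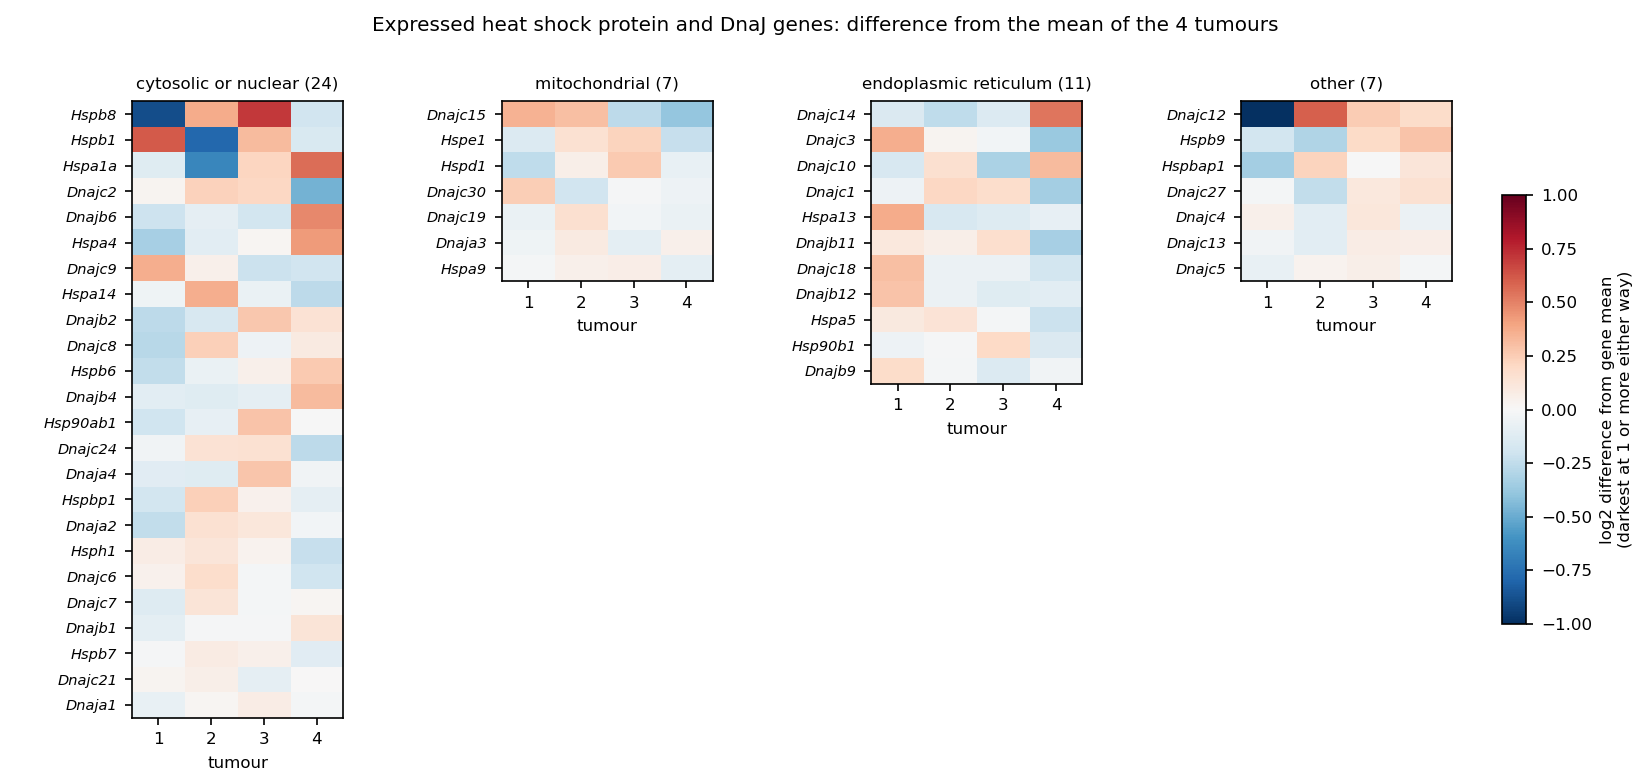
Difference of each expressed chaperone gene from its own mean over the 4 tumours (log2; blue below, red above, darkest at 1 or more), in columns for tumours 1 to 4 and panels by site, ordered by standard deviation within a panel. The darkest cells belong to Hspb8, Hspb1, Hspa1a and Dnajc12, and the lower rows of each panel are pale.

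Mitochondrial genes had no 2-fold range in any of the 7 expressed members. Hspd1 and Hspe1, the Hsp60 and Hsp10 subunits of the folding chamber of the matrix, are neighbours on the chromosome and are transcribed away from each other. Hspd1 had levels of 12.45, 12.76, 12.96 and 12.63, and Hspe1 had levels of 12.03, 12.31, 12.38 and 11.93. Both were highest in tumour 3 and next highest in tumour 2, over ranges of 0.51 and 0.45 log2, though after quantile normalization the Hspd1 difference was 0.25 log2. Hspa9, the Hsp70 that pulls proteins into the matrix, had levels of 11.15, 11.22, 11.24 and 11.08, and its next probe set ordered the tumours differently (10.32, 10.47, 10.49 and 10.72). A dimmer expressed probe set of Hspa9 had 7.60, 8.56, 8.14 and 8.34, a range of 0.95 log2. Dnaja3, the DnaJ partner of Hspa9, had levels of 9.14, 9.28, 9.09 and 9.24.

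By the brightest probe set of each gene, the widest spread among mitochondrial genes belonged to Dnajc15, a DnaJ protein of the inner membrane. Its levels were 10.96, 10.91, 10.35 and 10.22 in tumours 1 to 4, a range of 0.74 log2 (SD 0.38 log2, n = 4). Tumours 1 and 2 thus lay above tumours 3 and 4. Dnajc19, a DnaJ protein of the import motor, ranged over 0.22 log2, and Dnajc30 over 0.44 log2 with its highest level in tumour 1. As a group, 6 of 7 mitochondrial genes in tumour 2 lay above their average elsewhere, against 55.6% of all expressed genes, and 6 of 7 in tumour 4 lay below it, against 52.5%. The median difference was 0.12 log2 in tumour 2 and -0.09 log2 in tumour 4, against 0.04 and -0.02 for all expressed genes. Among the other settings the median difference in tumour 2 lay between 0.09 log2 without tumour 1 and 0.22 log2 without tumour 3. With a common median it was 0.19 log2 in tumour 2 and -0.16 log2 in tumour 4, against 0.10 and -0.08 for all expressed genes. All 8 proliferation markers were highest in tumour 2, and their part in the result was not tested.

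In the endoplasmic reticulum 9 of 11 genes lay below their average elsewhere in tumour 4, against 52.5% of all expressed genes, and 7 of 11 lay above it in tumour 1, against 45.0%. None of the 11 genes had a 2-fold range. Hspa5, the Hsp70 known as BiP that binds nascent chains and holds the stress sensors inactive, had levels of 13.16, 13.19, 13.04 and 12.84 in tumours 1 to 4. Hsp90b1, the Hsp90 known as Grp94, had levels of 12.60, 12.63, 12.84 and 12.50. Dnajc3, a DnaJ protein that also inhibits eIF2alpha kinases, had levels of 10.35, 10.02, 9.96 and 9.62. All 3 had their lowest level in tumour 4, by 0.34 to 0.74 log2 below the highest tumour.

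Dnajb11, a DnaJ protein that binds unfolded chains with BiP, had levels of 10.31, 10.27, 10.37 and 9.87, again lowest in tumour 4. Dnajb9, a DnaJ protein of the same compartment that the unfolded protein response raises, had levels of 10.49, 10.28, 10.17 and 10.27. Dnajc1 had levels of 9.31, 9.56, 9.53 and 9.02. Dnajc10, a disulfide reductase with a J domain, ran the other way, with 10.24, 10.57, 10.09 and 10.73 and its highest level in tumour 4.

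Over the 11 genes of the endoplasmic reticulum, the median gap to the remaining tumours was 0.14, -0.01, -0.08 and -0.19 log2 in tumours 1 to 4, against -0.04, 0.04, 0.03 and -0.02 for all expressed genes. In tumour 4, 6 of 11 had their lowest level, against 25.1% of all expressed genes at their lowest there. The 6 include Dnajc1, whose next probe set was lowest in tumour 3. In tumour 1, 5 of 11 had their highest level, against 28.0% of all expressed genes, and 0 of 11 their lowest, against 36.2%. Without tumour 1 the median gap in tumour 4 was -0.07 log2, against -0.04 for all expressed genes. With a common median the gap was 0.05 log2 in tumour 1 and 0.06 in tumour 2, against -0.13 and 0.10 for all expressed genes. In tumour 1 it was 0.25 log2 after quantile normalization and 0.22 without tumour 2, against -0.05 and -0.03 for all expressed genes. All 6 fibroblast markers were lowest in tumour 4, with a median difference of -1.61 log2, and their part in the result was not tested.

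**Figure D4:**
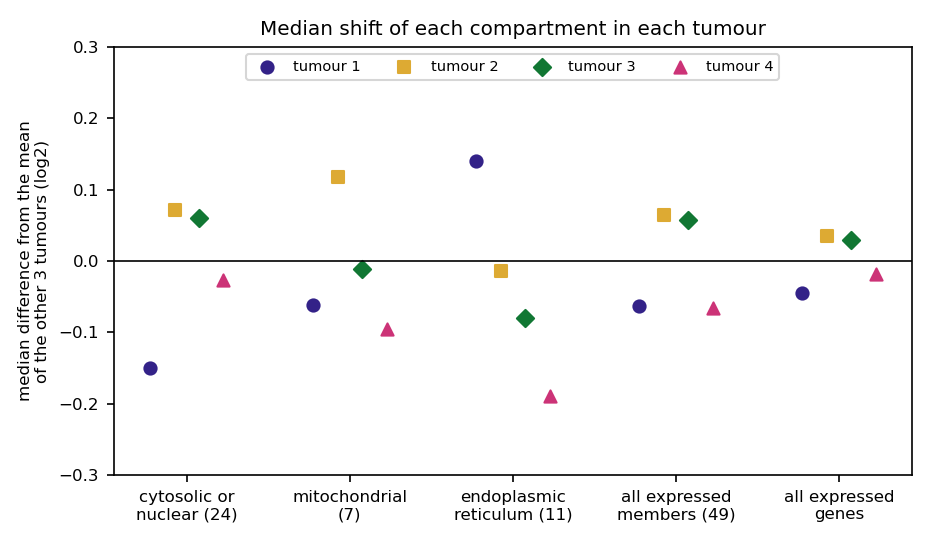
Median gap between each tumour and the average of the 3 remaining tumours (log2) for the expressed genes of each compartment, 1 symbol a tumour, with all chaperone genes and all expressed genes at the right. Genes of the endoplasmic reticulum lie highest in tumour 1 (0.14) and lowest in tumour 4 (-0.19), and cytosolic genes lowest in tumour 1 (-0.15). With a common median, which is not drawn, those of the endoplasmic reticulum were at 0.05 in tumour 1 and 0.06 in tumour 2. All expressed genes were then at -0.13 and 0.10.

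The genes placed elsewhere include Dnajc12, described above, and several with small ranges. Dnajc5, a DnaJ protein of secretory vesicles, ranged over 0.14 log2, and Dnajc13, a DnaJ protein of endosomes, over 0.18 log2. The probe set used for Dnajc5 was highest in tumour 3 and lowest in tumour 1. Its dimmest expressed probe set ran the other way and ranged over 0.65 log2. Hspbap1, which binds Hspb1, had levels of 8.79, 9.35, 9.13 and 9.25, and Hspb9, a small heat shock protein of testis, had levels of 7.63, 7.52, 8.01 and 8.10. The mean of Hspb9, 7.82, barely passed the level for expressed genes, 7.81, and 2 tumours lay below that level. Dnajc27 ranged over 0.40 log2. Hspbap1 was lowest in tumour 1, where Hspb1 was highest.

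Several genes had more than 1 expressed probe set, which allows the tumour differences to be compared within a gene. Of 11 such genes, 8 had the same sign of difference between the highest and the lowest tumour of the brighter probe set, and 7 had the same highest tumour. Among the 4 with a difference of at least 0.5 log2, all 4 kept the sign, and in 1, Hspb8, the next probe set gave at least 50% of the size. The same shares over all genes were not computed, so whether this agreement is usual on these arrays is not known.

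**Figure D5:**
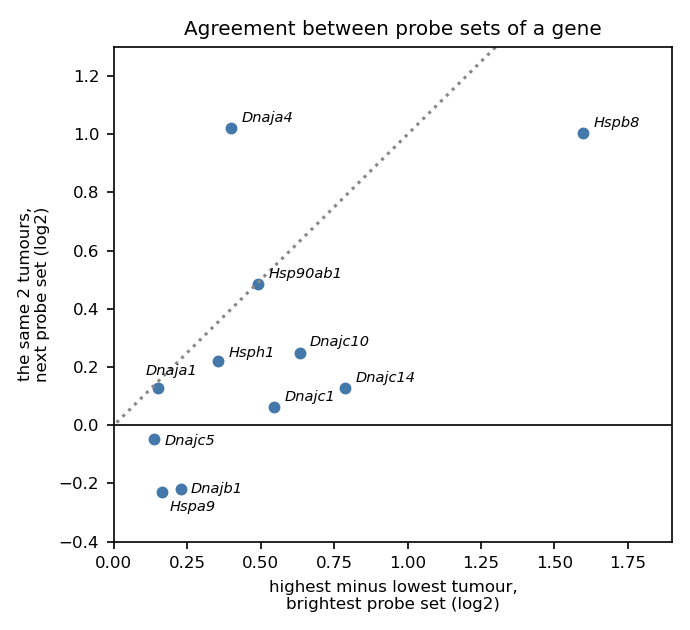
Difference between the highest and the lowest tumour by the brightest probe set (horizontal axis, log2) and the difference between the same pair of tumours by the next expressed probe set (vertical axis, log2), for the 11 chaperone genes that have 2 or more such sets. The dotted line marks equal values; Hspb8 lies at 1.60 and 1.00, and Dnajc5, Dnajb1 and Hspa9 lie below 0.

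Promoter sequences were read from RefSeq (assembly GRCr8) for the 53 chaperone genes matched by gene ID, as windows of 250 bases before to 50 bases after each start; Dnaja2, Dnajb4, Dnajc2, Dnajc8, Dnajc11, Dnajc12, Dnajc15, Dnajc22, Dnajc24, Hspa12a and Hspb2 were the others. Where a gene had several windows, the first listed was read. Its start equalled the start in the gene annotation of the same assembly for 29 of 53 genes. Matches and positions therefore hold only for the window read. Heat shock factor binds inverted units of nGAAn. The letters GAANNTTC or TTCNNGAA, which join 2 units on either strand, were found in 14 of 53 windows, against 15.9% of all 33469 promoter windows. Overlapping runs of 3 units (TTC, GAA and TTC, or GAA, TTC and GAA, each with 2 bases between) were found in 4 of 53, Dnaja1, Hsph1, Hspd1 and Hspe1, against 0.798% of all windows. The element of the endoplasmic reticulum stress response, CCAAT and CCACG with 9 bases between them on either strand, was found in 3 of 53, Hspa5, Hsp90b1 and Dnajc3, against 0.0657% of all windows. CCAAT alone was found in 21 of 53, against 37.5%.

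Hspd1 and Hspe1 start 289 bases apart on opposite strands, and their windows overlap by 211 bases and share 1 element. The Hspb1 window held 2 of the 2-unit matches, that of Hspb8 held 1, and that of Hspa1a none; a missing match says only that these letters are not in the window. The stretches that carry the 3-unit runs are shown for 3 genes, since such runs are rare among promoters; capitals mark the GAA and TTC units.

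Dnaja1, chr5:60638309-60638428, plus strand: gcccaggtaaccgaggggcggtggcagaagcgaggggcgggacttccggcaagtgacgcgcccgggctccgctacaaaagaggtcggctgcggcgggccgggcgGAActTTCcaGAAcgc

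Hsph1, chr12:10427273-10427392, plus strand: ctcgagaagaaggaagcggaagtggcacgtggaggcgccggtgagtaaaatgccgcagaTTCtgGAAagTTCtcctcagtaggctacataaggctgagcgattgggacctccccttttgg

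Hspe1, chr9:64084211-64084330, plus strand: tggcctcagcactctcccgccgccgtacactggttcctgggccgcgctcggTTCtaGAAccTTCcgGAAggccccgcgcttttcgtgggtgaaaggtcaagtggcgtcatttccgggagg

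The units lie at positions 10 to 22 after the start of Dnaja1, -36 to -24 relative to that of Hsph1 and -65 to -48 relative to that of Hspe1. Dnaja1, Hsph1 and Hspe1 had ranges of 0.15, 0.35 and 0.45 log2 among the tumours and Hspd1 one of 0.51 log2. A link between the runs and the ranges was not tested.

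Hspa5, Hsp90b1 and Dnajc3, the 3 genes with the stress element, are among the 6 of this compartment that were lowest in tumour 4. Their stretches are shown because the element is rare among promoters; capitals mark CCAAT and CCACG, or their reverse complements, ATTGG and CGTGG, where the element lies on the other strand.

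Hspa5, chr3:38452921-38453040, plus strand: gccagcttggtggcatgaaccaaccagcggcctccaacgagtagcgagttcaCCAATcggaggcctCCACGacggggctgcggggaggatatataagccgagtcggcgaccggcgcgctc

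Hsp90b1, chr7:23012338-23012479, minus strand: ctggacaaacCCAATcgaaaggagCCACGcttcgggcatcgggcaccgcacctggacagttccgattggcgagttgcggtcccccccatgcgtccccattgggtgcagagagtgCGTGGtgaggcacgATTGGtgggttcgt

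Dnajc3, chr15:102432483-102432602, plus strand: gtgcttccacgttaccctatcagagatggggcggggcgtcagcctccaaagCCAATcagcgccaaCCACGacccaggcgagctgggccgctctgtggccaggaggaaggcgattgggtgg

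The elements lie at -43 to -25 of Hspa5, between -176 and -54 of Hsp90b1, which has 2, and at -133 to -115 of Dnajc3. The other 8 expressed genes of the endoplasmic reticulum had no such element in their windows, and 3 of these 8 were also lowest in tumour 4. The match is a description of sequence, with no measure of binding.

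Partners of these chaperones that carry other symbols were counted from lists of 6 groups. Of 3 expressed genes on the heat shock factor list, which are Hsf1, Hsf2 and the binding protein gene Hsbp1, 0 had a 2-fold range; Hsf1, the factor that drives the heat shock response, had levels of 9.79, 9.61, 9.75 and 9.57, and Hsf2 had 9.58, 9.31, 9.03 and 9.08. Of 21 cytosolic co-chaperones 1 had a 2-fold range, Fkbp5, an Hsp90 partner of steroid receptors that glucocorticoids raise, with 9.63, 8.66, 7.71 and 9.40. Bag4 had 9.02, 8.72, 8.53 and 9.11. Bag3, the partner of Hspb8, had 11.07, 10.72, 10.77 and 11.11, which did not follow the order of the tumours in Hspb8. Of 13 expressed genes of the cytosolic chaperonin TRiC and its helper prefoldin 0 had a 2-fold range, and 9 were highest in tumour 2, against 26.4% of all expressed genes. The 8 proliferation markers were highest there too, and their part was not tested. Pfdn4 had 10.11, 10.54, 10.30 and 9.88, and Cct5 had 11.89, 12.37, 12.36 and 12.07.

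Of 12 expressed mitochondrial partners and proteases 0 had a 2-fold range, and of 13 expressed partners in the endoplasmic reticulum 1 did. Lonp1, a protease of the matrix, had 9.98, 10.29, 10.50 and 10.65, and Htra2, a protease of the intermembrane space, had 10.99, 10.49, 10.40 and 10.45. The gene of the endoplasmic reticulum was Ero1a, an oxidase for disulfide bonds that hypoxia raises, with levels of 10.30, 9.63, 9.91 and 11.04, highest in tumour 4. Hyou1, a nucleotide exchange factor for BiP, had 10.52, 10.93, 10.09 and 10.67. Of the 13 partners in the endoplasmic reticulum, 2 were highest and 4 lowest in tumour 1, against 28.0% and 36.2% of all expressed genes. In tumour 4, 5 were lowest, against 25.1%. Their median gap to the remaining tumours was -0.02 log2 in tumour 1 and -0.07 in tumour 4, against 0.14 and -0.19 for the 11 chaperone genes of this compartment. Among 3 small heat shock proteins under other symbols Cryab was expressed, with 9.94, 9.28, 9.44 and 8.60, highest in tumour 1 as Hspb1 was and lowest in tumour 4. The background share for the counts of 2-fold ranges is the 12.4% given above.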

How the data were processed

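Per the labels' protocols, 8 µg of total RNA was primed with oligo-dT, which favours the 3′ ends of transcripts, and labelled with biotin. The deposited values are linear intensity values for 31099 probe sets on 4 arrays. How they were computed from the scans (program, background, scaling) is not given in the sources used here. All arrays, as deposited, shared a mean of 500.1 after trimming 2% at each end, so values were used as deposited, as log2(value + 16). The number of arrays limits the precision.

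Of 21268 annotated probe sets, 20826 name 1 gene and were used, and 436 name several. The probe set with the highest mean stood for each gene. With 1 group and 1 array per tumour no significance test was run, and differences are described by size. A range call needs 1 log2 and a tumour that stands apart 0.5 log2 from each of the others. No arrays held identical values.

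The chaperone genes, their compartments and the lists of partners and cell markers were chosen with earlier results of these data known. Named genes are 16 of 19 well-known chaperones that had a value, those with a 2-fold range or a tumour that stands apart, the 4 of largest SD in each compartment, and the 2 expressed genes of largest SD in each list of partners. Cell markers are given as counts and sums, apart from Tnni2. Bag3 and the other chaperones named were added for their roles after their values were seen. Alternatives were the pseudocount, scaling, probe set choice, filter and leaving out each tumour. Python 3.11.15, numpy 2.4.6, pandas 2.3.3 and matplotlib 3.10.9 were used.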

Additional observations from a re-analysis of the deposited data

Results flagged for a closer look

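In 4 of 49 expressed chaperone genes (8.16%), against 5.63% of all expressed genes, a single tumour lay far from the other 3 relative to the gene's whole range, by Dixon's criterion for 4 samples, which chance meets in about 1 of 20 genes. Dnajc14 had 10.53 in tumour 4, with the other tumours between 9.74 and 9.86. Dnajb4, a DnaJ partner of cytosolic Hsp70, had 9.84 in tumour 4, with the others between 9.40 and 9.43. Hspa13, an Hsp70 of the endoplasmic reticulum, had 9.60 in tumour 1, with the others between 9.07 and 9.14. Dnajb12, a DnaJ protein of the endoplasmic reticulum membrane that takes part in protein degradation, had 8.42 in tumour 1, with the others between 8.01 and 8.08. All values are log2 of the signal plus 16.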

How the results depend on the processing

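No paired analysis was possible because all samples form 1 group. With no filter on low values 11 chaperone genes had a 2-fold range in place of 4, since more genes were counted. Leaving out a tumour gave 3 to 4, and not the same genes. Without tumour 1 they were Hspa1a, Hspb1 and Dnajc11, and without tumour 2 Dnajc12, Hspb8 and Dnajc11. Without tumour 4 they were Dnajc12, Hspb1 and Hspb8, and without tumour 3 all 4. Dnajc11 ranged over 1.06 log2 among all 4 tumours, but its mean of 7.75 lay below the level for expressed genes. Leaving out tumour 1 or 2 raised its mean over that level. The same 4 genes were called with pseudocounts of 1 and 64, a common median, quantile normalization, the mean of probe sets and without probe sets of shared transcripts, and Dnajc12 was lost with the filter at 75%. Genes with tumour 1 apart numbered 1 in place of 2 with the filter at the 75% point of probe sets, and 3 to 5 with a tumour left out (5 without tumour 2). With tumour 2 apart there was 1 in place of 2 with a common median, and 2 to 4 with a tumour left out (4 without tumour 1). With tumour 3 apart there was 1 in place of 0 without the filter, and 0 to 1 with a tumour left out (1 without tumour 2 or 4). With tumour 4 apart there was 1 in place of 3 with a common median, with the mean of probe sets and with the filter at 75%, 5 without the filter, and 3 to 6 with a tumour left out (6 without tumour 1 or 3). Fewer tumours to differ from, or a changed number of genes, bears on the counts by construction for the filters and left-out tumours, and for the others the cause was not tested. Differences between the highest and lowest tumour kept their sign in 486 of 489 recalculations. The exceptions were Dnajc1 (-0.01), Dnajc5 (-0.19) and Hspa9 (-0.20) with the mean of probe sets. A changed filter or pseudocount, or a left-out tumour, cannot turn this sign while the probe set stays the same. Most recalculations thus could not turn it, and the count does not measure robustness. The size of the difference moved by more than the gene's SD in 17. Among them were Hsp90ab1 (0.49, and 0.02 after quantile normalization), Hspd1 (0.51 and 0.25) and Hsp90b1 (0.34 and 0.18). With the mean of probe sets they included Dnajc2 (0.71 and 0.10), Dnajb1 (0.23 and 0.0037), Dnajc7 (0.26 and 0.02) and Dnaja4 (0.40 and 0.71). The cause was not tested. A common median moved all expressed genes to -0.13, 0.10, 0.11 and -0.08 in tumours 1 to 4, and the chaperone genes to -0.15, 0.13, 0.14 and -0.13. Signal near background limits the 15 genes below the filter.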
